A study of Homo sapiens with 9 samples.

Results

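The genes examined here are 32 genes of cholesterol synthesis, uptake and control, taken by symbol from a table of 21170 features from HaCaT, a human keratinocyte line that became immortal spontaneously in culture. All 32 were found, and 31 had enough counts to be tested among 13713 genes. NPC1L1, the sterol importer of the intestine, had no count in any library. Poly(A) RNA was sequenced in 9 libraries of 3 groups with 3 each: cells overexpressing an FTO mutant whose demethylase activity is disrupted (mut-FTO), cells overexpressing wild-type FTO (FTO), and cells carrying an empty vector (Vector). FTO takes methyl groups off adenosines in RNA. The promoter of the constructs, whether a group was 1 clone, and the culture medium, which sets how much sterol cells can take up, are not stated in the labels. The labels do not say whether libraries of 1 group are from separate cultures. The p-values therefore set group differences only against the spread of these libraries within groups, and that spread may be technical.

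Cells make cholesterol from acetyl-CoA through mevalonate, squalene and lanosterol, and they also take it up with lipoproteins, from which it is released in lysosomes. Genes of both routes are driven by SREBP transcription factors, which SCAP carries to the Golgi for activation when sterols are low and which INSIG proteins hold back in the endoplasmic reticulum when sterols are high. Oxysterols, the oxidized forms of cholesterol, activate the LXR receptors, which turn on genes of sterol export. In the epidermis cholesterol is one of the lipids of the permeability barrier.

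Levels are given in CPM, the usual depth-scaled count, here on normalized library sizes. Libraries held 32222203 to 37846027 counts. FTO itself checked the labels: it stood at 49.7, 82.7 and 64.3 CPM in mut-FTO, 69.6, 77.1 and 62.6 CPM in FTO, and 18.4, 17.0 and 25.8 CPM in Vector, and so separated Vector from both other groups but not these from each other. Markers of keratinocytes summed to 27300 to 34900 CPM in mut-FTO, 24000 to 24900 CPM in FTO and 20200 to 26000 CPM in Vector, with all 10 genes detected. Of 6 leukocyte markers, summed at 31.2 to 37.2 CPM in mut-FTO, 40.3 to 45.5 CPM in FTO and 74.9 to 82.6 CPM in Vector, TYROBP was at 0 in all libraries and PTPRC reached at most 0.0541 CPM. Hepatocyte markers were at 0 throughout. Fibroblast markers reached at most 10.8 CPM in sum, and melanocyte, endothelial and adipocyte markers 2.54, 1.73 and 0.398 CPM. The order of the leukocyte sum lay in LCP1, at 6.59 to 7.27 CPM in mut-FTO, 24.4 to 28.1 CPM in FTO and 59.1 to 66.9 CPM in Vector, and its part in the results below was not tested. CD14 had the opposite order, at 24.3 to 30.3 CPM in mut-FTO, 15.3 to 17.4 CPM in FTO and 10.6 to 15.5 CPM in Vector, with FTO and Vector overlapping.

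Libraries stood apart within 2 groups. Mitochondrially encoded genes took 14.97% of the counts of Vector replicate 3 (Wilson 95% interval 14.959 to 14.982, counting error only), and 3.81% to 7.45% in the other 8 libraries. Loci without a gene name took 3.17% of mut-FTO replicate 2 (3.163 to 3.175) and 2.498% of Vector replicate 3 (2.493 to 2.503), and 0.689% to 0.875% elsewhere. These libraries also stood apart in the cholesterol genes. Vector replicate 3 was the lowest of 9 libraries for 18 of the 31 genes tested, and for 11 of the 18 synthesis enzymes. MVD (mevalonate diphosphate decarboxylase) had 146 and 127 CPM in Vector replicates 1 and 2 but 39.6 CPM in replicate 3, whereas SC5D (sterol C5-desaturase) had 19.5 and 24.4 CPM there but 45.6 CPM in replicate 3. The deviation of Vector replicate 3 from the other Vector libraries went with the GC content of the gene's longest transcript, with a Spearman rho of −0.86 and a Pearson r of −0.83 across the 31 genes (−0.64 and −0.61 across 12531 genes tested that have a transcript in GENCODE 29). For mut-FTO replicate 2 these were 0.66 and 0.74 (0.42 and 0.31 across all). Genes within a library share its depth and preparation and are not independent replicates.

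**Figure D1:**
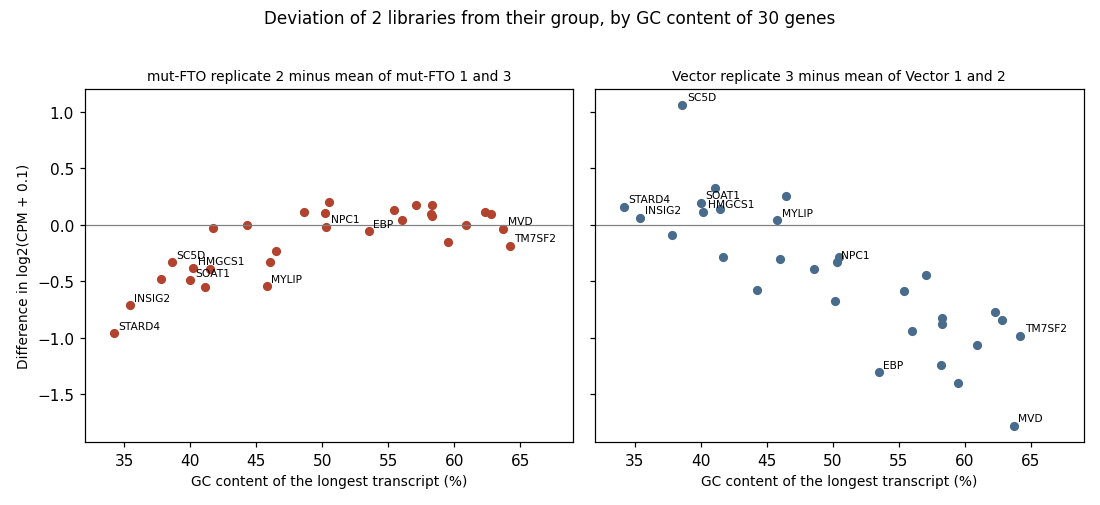
Difference in log2(CPM + 0.1) between mut-FTO replicate 2 and the mean of mut-FTO replicates 1 and 3 (left), and between Vector replicate 3 and the mean of Vector replicates 1 and 2 (right), against the GC content in percent of the longest transcript, 1 point per gene (30 genes, CH25H not drawn). On the right MVD, with a high GC content, lies far below 0 and SC5D, with a low one, highest above it, with exceptions such as LBR, while on the left STARD4, with the lowest GC content, lies below 0.

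NPC1, SOAT1 and TM7SF2 changed in mut-FTO. Of the 29 genes with a listed promoter, SREBF2 is the 1 whose promoter held a sterol regulatory element core. Promoter sequences of these 4 genes are shown. They are the 250 bases before the transcription start, 5′ to 3′ on the gene's strand, from RefSeq on GRCh38.p14. Capitals mark the motifs searched on both strands: the sterol regulatory element core TCACNCCAC, to which SREBPs bind, the CCAAT box CCAAT, bound by NF-Y, and the GC box GGGCGG, bound by Sp1.
NPC1 (chr18:23586507-23586756, minus strand): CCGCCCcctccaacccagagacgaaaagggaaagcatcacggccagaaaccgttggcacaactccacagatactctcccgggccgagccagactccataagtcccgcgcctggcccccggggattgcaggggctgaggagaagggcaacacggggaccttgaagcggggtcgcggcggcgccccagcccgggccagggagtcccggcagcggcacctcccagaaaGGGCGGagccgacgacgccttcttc
SOAT1 (chr1:179293547-179293796, plus strand): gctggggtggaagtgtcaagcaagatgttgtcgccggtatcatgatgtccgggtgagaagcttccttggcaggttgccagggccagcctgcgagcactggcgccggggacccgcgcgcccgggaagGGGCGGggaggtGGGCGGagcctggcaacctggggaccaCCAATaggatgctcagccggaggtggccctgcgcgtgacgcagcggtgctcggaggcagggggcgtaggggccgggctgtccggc
TM7SF2 (chr11:65111622-65111871, plus strand): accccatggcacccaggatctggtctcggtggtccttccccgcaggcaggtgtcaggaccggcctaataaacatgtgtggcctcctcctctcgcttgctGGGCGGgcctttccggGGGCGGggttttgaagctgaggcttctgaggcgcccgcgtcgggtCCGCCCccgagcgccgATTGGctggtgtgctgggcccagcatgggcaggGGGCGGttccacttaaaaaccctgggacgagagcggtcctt
SREBF2 (chr22:41832855-41833104, plus strand): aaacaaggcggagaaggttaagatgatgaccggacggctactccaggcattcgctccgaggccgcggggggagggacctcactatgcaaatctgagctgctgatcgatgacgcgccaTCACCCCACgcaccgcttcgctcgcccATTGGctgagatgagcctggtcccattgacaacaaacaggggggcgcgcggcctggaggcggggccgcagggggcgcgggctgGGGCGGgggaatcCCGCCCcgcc

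Of the 32 genes 29 had a promoter in that table, read from 250 bases before to 50 after the first start listed. The sterol element core was found in 1 of 29 (3.45%), in SREBF2 from position −133, beside 1.15% of all 27305 promoters. CCAAT was found in 18 of 29 (62.1%, beside 35.7% of all) and GGGCGG in 25 of 29 (86.2%, beside 44.6%). The 27305 promoters were not limited to the 13713 genes tested, and shares among expressed genes were not computed. The motifs were matched by exact letters, and matches of 1 motif may share bases. In SREBF2 a GC box from position −5 runs past the start, shares a base with the one from −10, and is left in lower case because it is not whole in the stretch shown. A match describes the letters of the window and is not evidence of binding. A missing match is not evidence that a gene lacks such an element.

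In mut-FTO against Vector, 2 of the 4 tested genes of sterol entry, transport and esterification fell, NPC1 and SOAT1. Of the 18 synthesis enzymes TM7SF2 rose and the others did not pass the test, and MYLIP, a regulator of lipoprotein receptors, rose. CH25H, which makes an oxysterol, was also called lower, but its few counts put it among the genes tested only through the group where it is high. With CH25H these are 5 of 31 genes tested at an adjusted p below 0.05 (16.1%), beside 7.78% of all 13713 genes (edgeR quasi-likelihood test, Benjamini-Hochberg adjusted over all 13713). By direction, 2 were higher, beside 3.27% of all genes, and 3 lower, beside 4.51%. The libraries of both groups did not overlap for 8 of the 31 (25.8%, beside 24% of all genes), 4 of them higher (12.2% of all genes) and 4 lower (11.8%). CH25H is among the lower genes in both counts, and supports neither. The median log2 fold change of the 31 was 0.084, beside −0.001 over all genes, and 10 of the 18 enzymes were above 0. Without Vector replicate 3 the median was −0.013, beside 0.024 over all genes, and 6 of the 18 enzymes were above 0. With an offset for transcript GC content in each library it was 0.094, beside −0.001, and 10 of the 18 were above 0.

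NPC1 encodes the membrane protein of late endosomes and lysosomes that passes cholesterol on to the rest of the cell, and it is mutated in Niemann-Pick disease type C. Its level was 106, 119 and 137 CPM in mut-FTO, 180, 201 and 173 CPM in FTO, and 247, 281 and 209 CPM in Vector. Every mut-FTO library was below every FTO library, and every FTO library below every Vector library. NPC1 fell 2.04-fold in mut-FTO against Vector (log2 fold change −1.03, SE 0.16; adjusted p = 0.00203, edgeR quasi-likelihood test), and this passed with any 1 of the 9 libraries left out and with an offset for transcript GC content in each library (adjusted p = 0.000228). Its partner NPC2, the soluble protein that hands cholesterol to NPC1, had 315, 322 and 329 CPM in mut-FTO, 382, 375 and 418 CPM in FTO, and 434, 359 and 265 CPM in Vector. The mut-FTO libraries lay below all FTO libraries, and inside the range of Vector only through Vector replicate 3. NPC2 did not pass (log2 −0.13, SE 0.18, adjusted p = 0.734, same edgeR test). Its log2 difference was −0.31 without Vector replicate 3 (adjusted p = 0.0926) and −0.33 without both libraries that stand apart (0.0636). With the GC content offset it was −0.091 (0.818, edgeR).

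SOAT1 encodes the enzyme that esterifies cholesterol with fatty acids for storage in droplets. It had 20.3, 13.3 and 17.4 CPM in mut-FTO, 21.0, 24.3 and 24.1 CPM in FTO, and 28.9, 28.7 and 33.0 CPM in Vector. The groups did not overlap, and FTO lay between the others. SOAT1 fell 1.77-fold in mut-FTO against Vector (log2 −0.83, SE 0.19; adjusted p = 0.0167, edgeR quasi-likelihood test). The call was lost without mut-FTO replicate 2 (adjusted p = 0.0628) or 3 (0.0694), and with only the 6 samples compared (0.0731), in the same edgeR test.

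CH25H encodes cholesterol 25-hydroxylase, which makes an oxysterol that restrains SREBP activation, and it is induced by interferon. It was scarce: 10, 18 and 11 counts in the Vector libraries and 5, 8 and 10 in FTO, but 0 counts in each mut-FTO library. By total counts it was at least 13.1-fold lower in mut-FTO than in Vector when the 3 mut-FTO libraries together are set at 3 counts, which is 0.0290 CPM. The edgeR adjusted p was 0.0159, and it was 0.0557 without mut-FTO replicate 3 and 0.0686 without Vector replicate 2. With so few counts the size of the difference is known only as this bound. CH25H entered the test through its counts in Vector, so that a gene at 0 in mut-FTO had to differ, and its p supports nothing further. With a filter on a mean of at least 10 counts it was not tested, and 4 of 30 genes were called, beside 7.97% of all genes.

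TM7SF2 is a C14-sterol reductase of the steps from lanosterol to cholesterol, which LBR, a protein of the inner nuclear membrane, also carries out. TM7SF2 had 21.3, 18.6 and 21.1 CPM in mut-FTO, 15.2, 14.4 and 13.4 CPM in FTO, and 12.7, 12.3 and 6.29 CPM in Vector. Groups did not overlap, and Vector replicate 3 was the lowest library by a wide gap. TM7SF2 rose 1.95-fold in mut-FTO against Vector (log2 0.96, SE 0.24; adjusted p = 0.0304, edgeR quasi-likelihood test). It has the highest GC content of the 31 genes (64.2%) and was 0.69 higher on the log2 scale without Vector replicate 3 (adjusted p = 0.00537, edgeR) and 0.82 higher with the GC content offset (adjusted p = 0.00265, edgeR). The call was lost without any 1 of the mut-FTO or FTO libraries (adjusted p = 0.0557 to 0.105 in the same edgeR test), with library size alone (0.0537) and with only the 6 samples compared (0.102). LBR had 27.5, 18.4 and 23.8 CPM in mut-FTO, 27.8, 28.5 and 32.8 CPM in FTO, and 29.4, 33.9 and 29.7 CPM in Vector. All mut-FTO libraries were below the others, but LBR did not pass (log2 −0.42; adjusted p = 0.214, edgeR).

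MYLIP, also called IDOL, encodes a ubiquitin ligase that sends lipoprotein receptors for degradation and is a target of LXR. It had 8.19, 5.77 and 8.73 CPM in mut-FTO, 5.61, 4.88 and 5.35 CPM in FTO, and 4.03, 4.47 and 4.37 CPM in Vector. The 3 groups did not overlap. MYLIP rose 1.76-fold in mut-FTO against Vector (log2 0.82, SE 0.22; adjusted p = 0.0416, edgeR quasi-likelihood test). This call stood near the threshold: it was kept without mut-FTO replicate 2 or Vector replicate 3 and lost without each other library (adjusted p = 0.0742 to 0.177 in the same edgeR test).

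**Figure D2:**
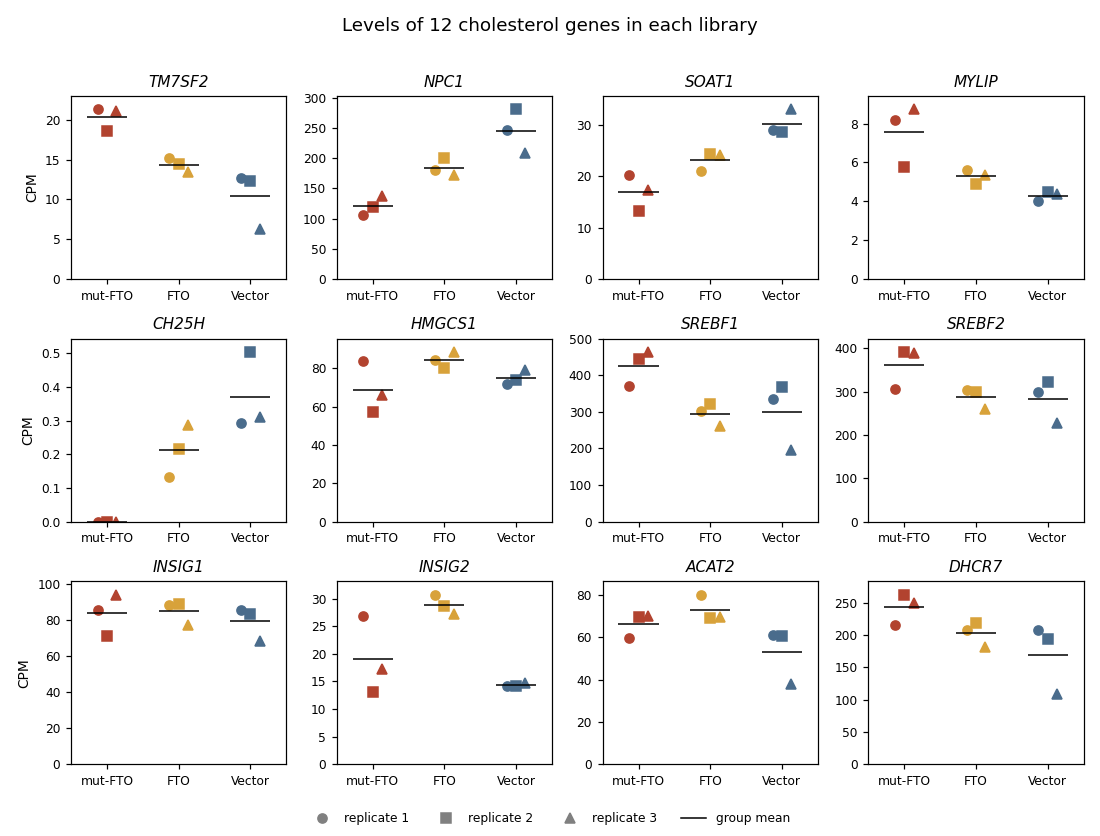
Level in CPM (vertical axes from 0) of 12 cholesterol genes in each library, by group, with symbols for replicate numbers and a line at the group mean. NPC1 and SOAT1 are lowest and TM7SF2 and MYLIP highest in mut-FTO, with FTO between the other groups and no overlap, CH25H is at 0 in mut-FTO, and INSIG2 is highest in FTO at 27.3 to 30.7 CPM.

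The enzymes that build cholesterol were read out as 18 genes. Of the 7 mevalonate enzymes none passed in any comparison by edgeR, DESeq2 or limma-voom, and 1 had an unadjusted p below 0.05, namely ACAT2 in FTO against Vector. HMGCS1, the synthase that makes HMG-CoA and a classical SREBP target, had 83.6, 57.0 and 66.3 CPM in mut-FTO, 84.4, 80.3 and 88.5 CPM in FTO, and 71.7, 73.8 and 78.9 CPM in Vector. It differed from Vector by −0.12 on the log2 scale in mut-FTO (SE 0.16; adjusted p = 0.741, edgeR) and by 0.17 in FTO (SE 0.16; adjusted p = 0.702, edgeR). The mut-FTO libraries spanned the whole range of Vector, while FTO lay just above it. ACAT2, the thiolase that joins acetyl-CoA units, had 59.6, 69.5 and 69.8 CPM in mut-FTO, 80.0, 69.2 and 69.4 CPM in FTO, and 60.8, 60.5 and 37.9 CPM in Vector. Its log2 difference was 0.46 in FTO against Vector (SE 0.19; adjusted p = 0.373, edgeR), and 0.24 without Vector replicate 3 (adjusted p = 0.301, edgeR).

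The remaining mevalonate genes were MVK and PMVK, the mevalonate and phosphomevalonate kinases, MVD, IDI1 (isopentenyl diphosphate isomerase) and FDPS (farnesyl diphosphate synthase). Their log2 differences ran from −0.12 (IDI1) to 0.29 (MVK) in mut-FTO against Vector, and from 0.21 to 0.30 in FTO against Vector. The positive values of 4 of these genes rest on Vector replicate 3: without it MVK, PMVK, MVD and FDPS were below 0 in both comparisons, at −0.032, −0.283, −0.24 and −0.013 in mut-FTO and −0.13, −0.126, −0.113 and −0.017 in FTO. IDI1 was then at −0.009 in mut-FTO and 0.352 in FTO. With the GC content offset and all libraries MVK, PMVK, MVD and FDPS were at 0.227, −0.001, 0.087 and 0.199 in mut-FTO. In FTO they were at 0.239, 0.278, 0.345 and 0.284. Summed over the 7 genes the level was 772 ± 12.4 CPM in mut-FTO, 824 ± 31.7 CPM in FTO and 684 ± 206 CPM in Vector (SD, n = 3 each). The Vector libraries summed to 851.6, 745.7 and 454 CPM, so the low mean there lies in replicate 3.

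Of the 11 enzymes from squalene to cholesterol TM7SF2 alone passed, in mut-FTO against Vector. DHCR7, the reductase of the last step, had 216, 262 and 249 CPM in mut-FTO, 207, 219 and 182 CPM in FTO, and 207, 193 and 109 CPM in Vector. All mut-FTO libraries were above Vector, replicate 1 by little, and DHCR7 did not pass (log2 0.51, SE 0.22; adjusted p = 0.191, edgeR); with the GC content offset it did (log2 0.42; adjusted p = 0.0393, edgeR). Without Vector replicate 3 the difference was 0.27 (adjusted p = 0.171), and without both libraries that stand apart 0.19 (adjusted p = 0.315, edgeR). EBP, the sterol isomerase, had 95.8, 94.4 and 101 CPM in mut-FTO, 146, 138 and 135 CPM in FTO, and 179, 138 and 63.8 CPM in Vector. The mut-FTO libraries lay inside the wide range of Vector, and EBP did not pass (log2 −0.39; adjusted p = 0.464, edgeR). Without Vector replicate 3 EBP was 0.72 lower in mut-FTO than in Vector (adjusted p = 0.000773) and 0.51 lower in mut-FTO than in FTO (adjusted p = 0.00783, edgeR); with the GC content offset it did not pass (0.280 and 0.189).

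The other 8 enzymes, FDFT1 (squalene synthase), SQLE (squalene epoxidase), LSS (lanosterol synthase), CYP51A1 (lanosterol demethylase), NSDHL and HSD17B7 (C4 demethylation), SC5D and LBR, had log2 differences of −0.42 to 0.22 in mut-FTO against Vector and of −0.061 to 0.29 in FTO against Vector. SQLE, the rate-limiting step after squalene, had 65.4, 56.8 and 68.0 CPM in mut-FTO, 67.9, 66.7 and 64.8 CPM in FTO, and 56.4, 65.0 and 72.3 CPM in Vector. Both other groups lay inside the range of Vector. Summed over the 11 genes the level was 902 ± 44.2 CPM in mut-FTO, 937 ± 32.4 CPM in FTO and 835 ± 153 CPM in Vector (SD, n = 3 each). Per kilobase of the longest GENCODE 29 transcript FDPS was the most abundant enzyme, at 202, 204 and 170 CPM per kb in mut-FTO, FTO and Vector, and HSD17B7 the least, at 3.20, 4.03 and 3.63 CPM per kb.

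**Figure D3:**
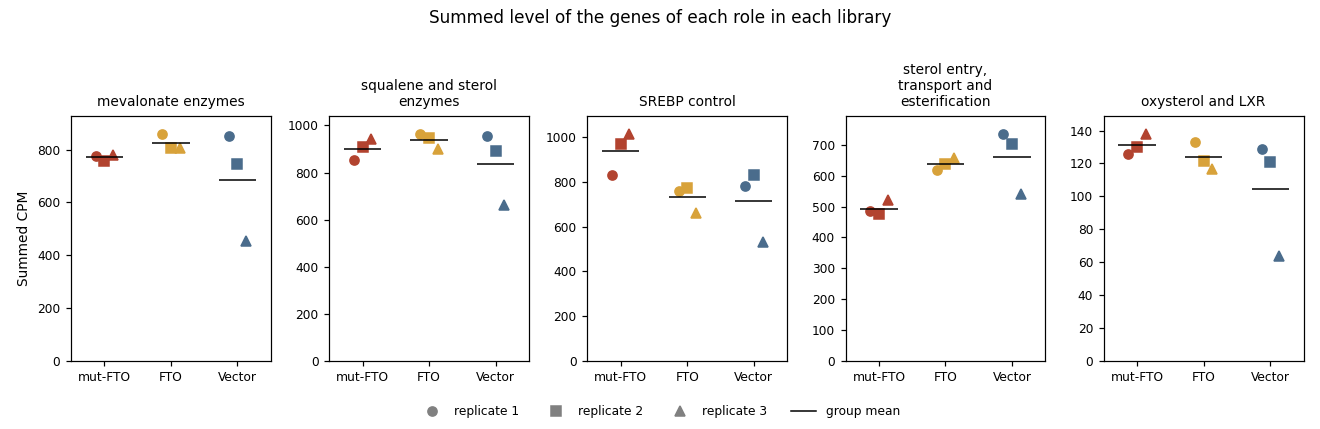
Summed CPM of the genes of each role in each library (5 panels, vertical axes from 0), with symbols for replicate numbers and a line at the group mean. Vector replicate 3 is the lowest library in 4 panels, and in the panel of sterol entry, transport and esterification the mut-FTO libraries, at 475.1 to 520 CPM, lie below all others.

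The genes that control SREBP did not pass in any comparison by edgeR or limma-voom, and DESeq2 called INSIG2 in FTO against Vector. SREBF1 encodes the factors SREBP-1a and SREBP-1c, the second of which is itself an LXR target. It had 371, 443 and 463 CPM in mut-FTO, 301, 320 and 260 CPM in FTO, and 336, 367 and 196 CPM in Vector. Every mut-FTO library lay above every other library, replicate 1 by only a few CPM. The log2 difference was 0.51 in mut-FTO against Vector (SE 0.22; adjusted p = 0.199) and 0.54 in mut-FTO against FTO (SE 0.22; adjusted p = 0.277, edgeR). Without Vector replicate 3 the difference from Vector was 0.27 (adjusted p = 0.188, edgeR), and 0.22 without both libraries that stand apart (0.263). The difference from FTO was 0.55 without Vector replicate 3, with an adjusted p of 0.00500 (edgeR), and with the GC content offset it was 0.41 (adjusted p = 0.0643).

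SREBF2 encodes SREBP-2, the main driver of cholesterol synthesis. It had 307, 391 and 389 CPM in mut-FTO, 303, 299 and 259 CPM in FTO, and 299, 321 and 227 CPM in Vector. Replicate 1 of mut-FTO lay within the range of Vector, and SREBF2 did not pass (log2 0.36, SE 0.17; adjusted p = 0.258, edgeR). SCAP, the escort of SREBP, ranged from 26.7 to 53.2 CPM over the libraries and differed by 0.32 in mut-FTO against Vector (adjusted p = 0.420, edgeR). INSIG1, a retention factor and a sensitive SREBP target, had 85.7, 71.4 and 94.0 CPM in mut-FTO, 88.4, 88.9 and 77.3 CPM in FTO, and 85.5, 83.6 and 68.6 CPM in Vector. The groups overlapped, with log2 differences of 0.079 in mut-FTO and 0.099 in FTO against Vector (SE 0.16 each; adjusted p = 0.829 and 0.847, edgeR).

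None of the 31 genes passed in FTO against Vector, beside 0.744% of all genes tested, 0.306% higher and 0.438% lower (edgeR quasi-likelihood test, Benjamini-Hochberg adjusted). At an unadjusted p below 0.05 there were 2 higher and 1 lower, beside 11.9% of all genes. DESeq2 called INSIG2, beside 2.2% of all genes, and limma-voom called 0. The libraries did not overlap for 10 of 31 genes (32.3%, beside 21% of all genes), 7 higher (10.1% of all genes) and 3 lower (10.9%). The lower genes include CH25H, at 5 to 10 counts in FTO and 10 to 18 in Vector. Groups with less spread overlap less. The median SD of log2 CPM over the 31 genes was 0.107 in FTO (0.143 over all genes) and 0.357 in Vector (0.366). The part of this spread in the share was not tested. The median log2 fold change was 0.153, beside −0.002 over all genes, and −0.018 without Vector replicate 3. Of the 18 enzymes 16 were above 0, with a median of 0.22, and 10 of 18 without Vector replicate 3, with a median of 0.073. With the GC content offset the median of the 31 genes was 0.113, and 16 of the 18 enzymes were above 0, with a median of 0.232.

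INSIG2, the second retention factor, was the gene nearest to the threshold in FTO. It had 26.9, 13.1 and 17.3 CPM in mut-FTO, 30.7, 28.7 and 27.3 CPM in FTO, and 14.1, 14.2 and 14.8 CPM in Vector. All FTO libraries lay above all others, and the Vector libraries were close together. INSIG2 was 2.01-fold as high in FTO as in Vector (log2 1.01, SE 0.23; adjusted p = 0.0771, edgeR quasi-likelihood test) and did not pass. It passed in DESeq2 (adjusted p = 0.00505) and in edgeR with only the 6 samples compared (0.0484). In edgeR it also passed without Vector replicate 3 (log2 1.01; adjusted p = 0.0234), without mut-FTO replicate 1 (adjusted p = 0.0269), when INSIG2 also passed as lower in mut-FTO than in FTO, and with the GC content offset (log2 0.89; adjusted p = 0.0478). In 14 of 20 alternatives INSIG2 did not pass against Vector. These include the edgeR fits without any 1 FTO library (0.262 to 0.338) and without Vector replicate 1 (0.108) or 2 (0.261). They also include mut-FTO replicate 2 (0.0550) or 3 (0.148) left out, library size alone (0.132), the replicate block (0.117) and limma-voom (0.0727). INSIG2 is AT-rich (GC content 35.4%) and was lowest in mut-FTO replicate 2. Without both libraries that stand apart it was 0.62 higher in mut-FTO than in Vector (adjusted p = 0.0231, edgeR).

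NPC1 was 0.41 lower on the log2 scale in FTO than in Vector (SE 0.16; adjusted p = 0.344, edgeR), and 0.54 lower without Vector replicate 3 (adjusted p = 0.0257). SOAT1 was 0.38 lower (SE 0.19; adjusted p = 0.442, edgeR). STARD4, which carries cholesterol through the cytosol, had 36.8, 38.4 and 41.3 CPM in FTO, and 26.8, 34.6 and 34.1 CPM in Vector. FTO lay above Vector throughout, but STARD4 did not pass (log2 0.29, SE 0.24; adjusted p = 0.671, edgeR). In mut-FTO it had 43.8, 20.6 and 36.7 CPM, a wider range than in the other groups, with replicate 2 lowest.

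The mutant and the wild-type enzyme were also compared directly. None of the 31 genes passed in mut-FTO against FTO, beside 2.33% of all genes, 1.13% higher and 1.2% lower (edgeR quasi-likelihood test, Benjamini-Hochberg adjusted). At an unadjusted p below 0.05 there were 2 higher and 4 lower, beside 14% of all genes. DESeq2 called 2 lower (CH25H and NPC1), beside 4.55% of all genes, and limma-voom called 0. Groups did not overlap for 15 of 31 genes (48.4%, beside 29% of all), 6 higher (14.2% of all genes) and 9 lower (14.8%). CH25H is among the lower genes in each of these counts but that of limma-voom, and supports none of them. The median SD of log2 CPM over the 31 genes was 0.155 in mut-FTO (0.23 over all genes) and 0.107 in FTO (0.143). The part of this smaller spread in the share without overlap was not tested. The median log2 difference was −0.143, beside −0.005 over all genes, and 4 of the 18 enzymes were above 0. NPC1 was 0.62 lower in mut-FTO than in FTO (SE 0.16; adjusted p = 0.0767), 0.60 lower without Vector replicate 3 (adjusted p = 0.00271) and 0.64 lower with the GC content offset (adjusted p = 0.0130, edgeR). CH25H, with 0 counts in mut-FTO and 23 in FTO, was at least 7.23-fold lower by total counts (adjusted p = 0.0767, edgeR). Any 2 of the 3 comparisons share the libraries of 1 group.

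The LXR receptors did not pass. NR1H2 (LXR beta) had 106, 110 and 116 CPM in mut-FTO, and 117, 106 and 103 CPM in FTO, and had 112, 107 and 52.5 CPM in Vector. Only Vector replicate 3 departed from this range. NR1H3 (LXR alpha) averaged 13.1 ± 1.02 CPM in mut-FTO, 9.59 ± 1.13 CPM in FTO and 9.23 ± 2.63 CPM in Vector (SD, n = 3 each). It differed by 0.50 in mut-FTO against Vector (adjusted p = 0.218, edgeR).

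**Figure D4:**
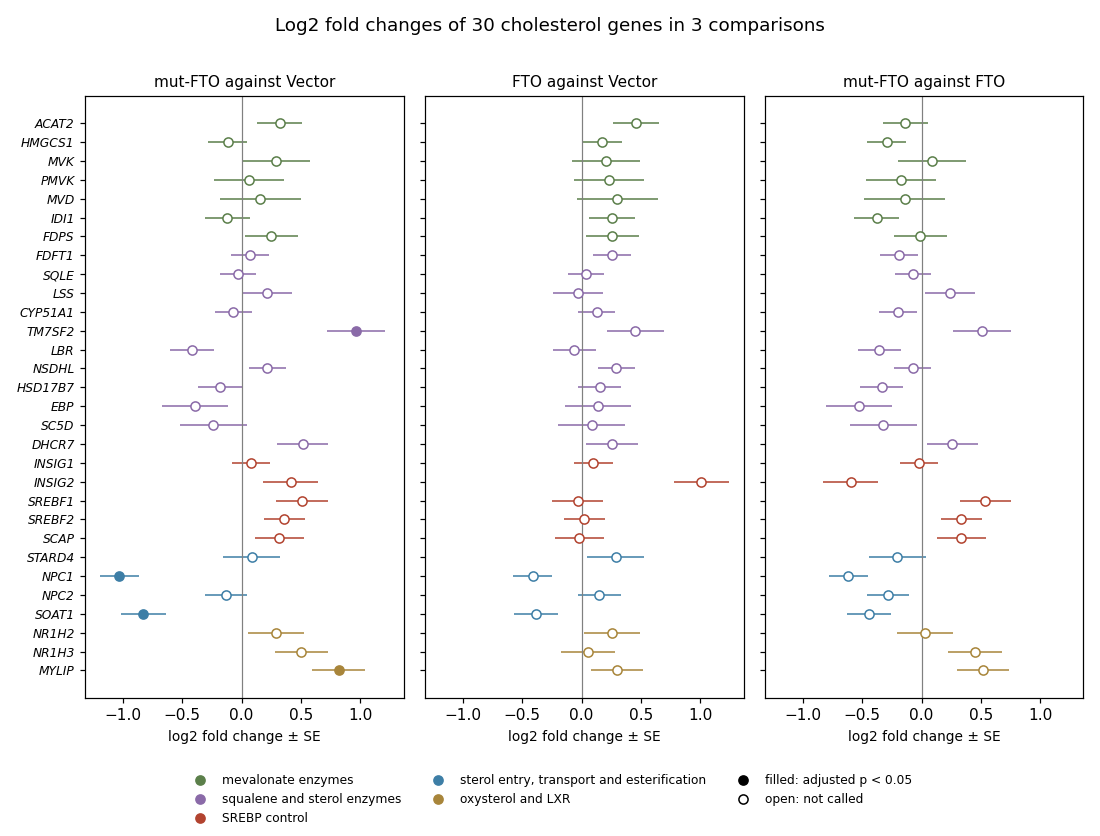
Log2 fold changes with standard errors of 30 cholesterol genes in mut-FTO against Vector, FTO against Vector and mut-FTO against FTO (edgeR, all 9 libraries, CH25H not drawn since mut-FTO had no count). Filled points passed an adjusted p of 0.05: TM7SF2, NPC1, SOAT1 and MYLIP in the first panel, and none in the others.

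Genes beside this set were read from lists of the same pathway. Of 15 tested genes of sterol transport and lipoprotein receptors 2 rose and 2 fell in mut-FTO against Vector, with a median of −0.184 (3.27% of all genes rose and 4.51% fell). LIPA, the lysosomal acid lipase that frees cholesterol from lipoprotein esters ahead of NPC2 and NPC1, had 125, 94.6 and 138 CPM in mut-FTO, 197, 191 and 199 CPM in FTO, and 187, 211 and 188 CPM in Vector. FTO and Vector overlapped and all mut-FTO libraries were lower. LIPA fell 1.64-fold against Vector (log2 −0.71, SE 0.16; adjusted p = 0.0167) and 1.64-fold against FTO (log2 −0.72, SE 0.16; adjusted p = 0.0404, edgeR quasi-likelihood test). The call against Vector was lost without mut-FTO replicate 2 (0.0598) or Vector replicate 2 (0.0714), and the call against FTO without any mut-FTO or FTO library or Vector replicate 2 (0.0611 to 0.171, same test).

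STARD5, a cytosolic sterol carrier, had 147, 197 and 166 CPM in mut-FTO, 119, 117 and 114 CPM in FTO, and 106, 99.0 and 77.2 CPM in Vector. The groups did not overlap. STARD5 rose 1.81-fold in mut-FTO against Vector (log2 0.86, SE 0.17; adjusted p = 0.00724, edgeR), and passed with any 1 library left out. CAV1 (caveolin 1, a cholesterol-binding coat protein of caveolae) rose 1.74-fold to 258 ± 65.2 CPM in mut-FTO, against 148 ± 25.9 CPM in Vector (SD, n = 3 each; adjusted p = 0.0247, edgeR), and stood at 256 ± 14.7 CPM in FTO. LRP8, a receptor of the lipoprotein receptor family, fell 1.70-fold to 27.8 ± 2.02 CPM in mut-FTO, against 47.2 ± 7.87 CPM in Vector (adjusted p = 0.0231, edgeR). CAV1 lost its call without mut-FTO replicate 1 or 3, FTO replicate 3 or Vector replicate 1 or 2 (0.0561 to 0.102), and LRP8 without any mut-FTO library or Vector replicate 2 (0.0673 to 0.0857, same test).

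Of 10 tested genes of SREBP processing and sterol-dependent degradation 1 fell in mut-FTO against Vector, with a median of −0.13 (10% of the list called, beside 7.78% of all genes, and 4.51% of all genes lower). This was MBTPS2, the site-2 protease that releases SREBPs from the membrane. It had 6.95, 3.53 and 5.46 CPM in mut-FTO, 5.98, 10.1 and 9.38 CPM in FTO, and 10.5, 9.17 and 12.8 CPM in Vector. The mut-FTO and Vector libraries did not overlap, while FTO overlapped both. MBTPS2 fell 2.03-fold in mut-FTO against Vector (log2 −1.02, SE 0.28, adjusted p = 0.0457, edgeR). This call was lost without 6 of the 9 libraries, all but mut-FTO replicate 1, FTO replicate 1 and Vector replicate 3 (0.0560 to 0.159, same test). It was also lost with only the 6 samples compared (0.0922) and without both libraries that stand apart (log2 −0.69; 0.0631).

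Of 15 tested genes of fatty acid synthesis, the branch driven by SREBP-1, 2 fell and none rose in mut-FTO against Vector, with a median of −0.036 (13.3% of the list called, beside 7.78% of all genes, 3.27% higher and 4.51% lower). No member had an unadjusted p below 0.05 upward. ELOVL6, the elongase of long-chain fatty acids, fell 1.88-fold to 5.70 ± 0.587 CPM in mut-FTO, against 10.7 ± 2.62 CPM in Vector (adjusted p = 0.0230, edgeR). MID1IP1, an activator of acetyl-CoA carboxylase, fell 1.67-fold to 80.3 ± 11.3 CPM in mut-FTO, against 134 ± 27.7 CPM in Vector (SD, n = 3 each; adjusted p = 0.0251, edgeR). ELOVL6 lost its call without mut-FTO replicate 2 (0.0860) or 3 (0.0891), and MID1IP1 without mut-FTO replicate 1 or 2, FTO replicate 1 or Vector replicate 1 or 2 (0.0514 to 0.113, same test).

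Of 7 tested partners and targets of LXR 1 rose, in mut-FTO against FTO, with a median of 0.395 (2.33% of all genes called, 1.13% higher). At an unadjusted p below 0.05 there were 3 higher and 0 lower, beside 14% of all genes. They include ABCA1 (log2 1.01, adjusted p = 0.0673, edgeR) and LPCAT3 (log2 0.56, adjusted p = 0.107), which did not pass. SMPDL3A, PLTP, RXRA and RXRB differed by −0.015, 0.049, 0.395 and −0.154 in mut-FTO against FTO and did not pass either. In mut-FTO against Vector ABCA1 was 0.34 and LPCAT3 0.33 higher (adjusted p = 0.500 and 0.265, edgeR). The log2 difference of ABCA1 in FTO against Vector was −0.67 (adjusted p = 0.326, edgeR), with every FTO library below Vector. ABCG1, an exporter of cholesterol to lipoproteins and a target of LXR, had 1.62, 3.40 and 2.25 CPM in mut-FTO, 0.186, 0.510 and 0.258 CPM in FTO, and 1.23, 0.336 and 0.282 CPM in Vector. All mut-FTO libraries lay above the others, which rest on 7 to 42 counts each. ABCG1 rose 7.53-fold in mut-FTO against FTO (log2 2.91, SE 0.63; adjusted p = 0.0306, edgeR), and this was lost without any 1 mut-FTO or FTO library (0.0537 to 0.166, same test). Against Vector it was 1.97 higher on the log2 scale and did not pass (adjusted p = 0.0639, edgeR). None of 14 genes of the isoprenoid branch, which leads from FDPS to prenylated proteins, dolichol and ubiquinone, passed in any comparison by edgeR; at an unadjusted p below 0.05 there was 1, in mut-FTO against FTO. In FTO against Vector no gene of these 5 lists passed by edgeR. At an unadjusted p below 0.05 there were 4 transport genes, 1 fatty acid gene and 1 LXR gene, beside 11.9% of all genes.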

How the data were processed

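Sample labels gave the groups and replicate numbers. The authors deposited raw counts, whole numbers per gene. Per the submitters' processing notes the tools were HISAT2 and StringTie and the build was mm10, which is mouse, whereas the table's symbols are human; no position was therefore read from the files. Neither versions nor the counting program, strand setting or annotation is stated (not given in the sources used here). Column names carry letters that were matched to the groups (N for Vector, F for FTO, tF for mut-FTO); FTO counts check Vector against the others, while FTO and mut-FTO are told apart by the letters alone. Any pair of libraries differed by more than sampling noise.

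All 9 libraries were fitted with edgeR 4.0.16 in R 4.3.3 with a term per group: filterByExpr (minimum count 10, minimum total 15), TMM factors, robust quasi-likelihood tests and Benjamini-Hochberg adjustment over 13713 genes. SEs were derived from the fold change and F statistic. CPM uses TMM-scaled library sizes. The code was tested on simulated data. The genes and lists were chosen with earlier results of these data known. Values in every library are given for genes past the threshold, HMGCS1, SREBF1, SREBF2, INSIG1, and those of lowest p until 12 were reached. Others shown were chosen after their values were seen.

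Alternatives were RLE factors, library size alone, 2 other filters, DESeq2 1.42.0, limma-voom 3.58.1, a fit of the 6 libraries at issue, a replicate block, each library left out, the 2 libraries that stand apart left out, and assembled loci and mitochondrial genes left out. A GC content offset was added after the data were seen: a lowess curve per library of log2 CPM, relative to the gene's mean, on transcript GC content. Promoters are from RefSeq, and GC content and length from GENCODE 29 (12531 of 13713 genes matched).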

Additional observations from a re-analysis of the deposited data

How the results depend on the processing

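In mut-FTO against Vector 5 genes passed, CH25H among them, beside 7.78% of all genes. The number was 3 with library size alone (7.96% of all genes) and 2 with only the 6 samples compared (4.63%). It ranged from 1 to 6 with 1 library left out (4.36% to 15% of all genes). Under the other alternatives it stayed within 1.5 times (5.93% to 17.3% of all genes). In FTO against Vector none passed, beside 0.744% of all genes. It was 1 with DESeq2 (2.2% of all genes), with only the 6 samples compared (0.306%) and with the GC content offset (1.74%). Without both libraries that stand apart it was 2 (7.55% of all genes), and with 1 library left out 0 to 2 (0.193% to 3.41%). In mut-FTO against FTO none passed, beside 2.33% of all genes. It was 2 with DESeq2 (4.55% of all genes) and 1 with the GC content offset (5.24%). With only the 6 samples compared it was 4 (9.1% of all genes), as it was without both libraries that stand apart (8.6%). With 1 library left out it was 0 to 4 (0.508% to 10.2% of all genes). Without Vector replicate 3 these counts were 6, 2 and 4, and 2089, 476 and 1427 of all genes passed (15%, 3.41% and 10.2%). Fewer samples are part of how some of these alternatives are built. The shared spread was not compared between the fits, and other causes were not tested.
Replicate numbers showed no sign of pairing: deviations of same-numbered libraries correlated at −0.127 to 0.106. Since Vector replicate 3 and mut-FTO replicate 2 stand apart within their groups, this check cannot exclude a shared effect of the replicate number. With the replicate number as a block 4, 0 and 0 genes passed, beside 5.93%, 0.489% and 1.62% of all genes. MYLIP then lost its call (adjusted p = 0.0851, edgeR), as did MBTPS2 (0.0724) and MID1IP1 (0.0572) against Vector and LIPA against FTO (0.0820). With only the 6 samples compared MYLIP (0.141), CAV1 (0.0982), ELOVL6 (0.0867), MID1IP1 (0.0840), LIPA (0.0724) and LRP8 (0.0679) lost their call against Vector. MYLIP also lost it with library size alone (0.0771) and no filter beyond 1 count (0.0545), and LIPA against FTO with library size alone (0.0541).
The log2 difference of INSIG1 in FTO against Vector changed sign to −0.009 without both libraries that stand apart, and ranged from −0.018 to 0.157 with 1 library left out. NPC1 and STARD5 in mut-FTO against Vector passed under every alternative run. The GC content offset was chosen after seeing the data.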
